A study of Mus musculus with 6 samples.

Results

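PTTG1IP, the gene of a membrane protein that binds securin, was examined together with 9 genes of sister chromatid cohesion and separation. The genes were taken by symbol from the count table, and all 10 were found among its 46937 symbols. PTTG1IP was chosen because it stood among the genes that differed most clearly between the groups, and the other genes were set beside it for their roles, with results of these data known. The differences between the groups are therefore given for these 10 genes as descriptions, with no test. All 10 passed the filter on low counts.

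RNA had been sequenced from 6 biopsies of lung squamous cell carcinoma in mice. Both groups carry an activating PI3K mutation (Pik3ca H1047R), SOX2 overexpression and a Cdkn2a and Cdkn2b deletion. The 3 PSC libraries have wild-type NSD3 and are the controls, and the 3 PSCN libraries also express NSD3 T1242A, a mutant of a histone lysine methyltransferase. Age, the cells that express the alleles and whether each biopsy came from a separate mouse are not stated by the labels. The p-values thus cover only the spread among these 6 libraries, part of which may be technical. A biopsy mixes cell types, and fewer cells of a type and less RNA per cell cannot be told apart.

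Total counts ranged from 69563622 to 72807077, and levels are CPM, counts scaled to the normalized library size. Where 3 values are given for a group, they are those of its libraries 1, 2 and 3 in that order. NSD3 stood at 79.7 to 102 CPM in PSC and at 821 to 1932 CPM in PSCN, so NSD3 follows the labels. CDKN2B, which is deleted in both groups per the labels, reached 86.1 CPM in PSCN library 1, against that label, while the other 5 libraries held at most 0.94 CPM. CDKN2A, also deleted per the labels, was at 1.51 to 5.13 CPM over the 6 libraries. Summed fibroblast markers were at 36410 CPM in PSCN library 1 and at 688.5 to 2476 CPM in the other 5. Whether the CDKN2A and CDKN2B transcripts came from tumour cells was not tested. Without PSCN library 1 the log2 fold changes of PTTG1IP, SGO1 and ESPL1 were 1.95, 1.17 and 0.72. Of 8 squamous markers 7 matched a symbol of the table and were detected, and their summed level was 148, 1476 and 5443 CPM in PSC and 6925 to 21760 CPM in PSCN. PSC library 3 lay nearer to the other group: its mean correlation of log2 CPM over 21201 genes was 0.941 with PSCN and 0.908 with the other PSC libraries. XIST, the transcript of the inactive X, was at 1034 to 1088 CPM in PSC libraries 2 and 3 and at most at 2.4 CPM in the other 4. DDX3Y, a gene of the Y chromosome, was at 62.9, 0.11 and 0 CPM in PSC and at 54.6, 84.7 and 73.3 CPM in PSCN. PSC library 1 thus differed in sex, and so in mouse, from PSC libraries 2 and 3.

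Sister chromatids are held together by cohesin, a ring of SMC1A, SMC3 and RAD21 with STAG1 or STAG2 bound to it. WAPL opens the ring, and SGO1 (shugoshin) protects it at centromeres until anaphase. Separase (ESPL1) then cuts RAD21, and securin (PTTG1) holds separase inactive until the anaphase-promoting complex marks securin for destruction. PTTG1IP, also called PBF, is known for carrying securin into the nucleus, and it also binds an iodide transporter.

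The promoter of PTTG1IP is shown because that gene carries the largest difference among the 10, and a short stretch at the start of ESPL1 because it holds both promoter motifs that were searched. These were CHR (TTTGAA or TTCGAA), the cell cycle gene homology region, and the CCAAT box (CCAAT), each on both strands in the 250 bases before the transcript start. The sequences are from RefSeq on GRCm38.p6, on the plus strand, and capitals mark the motif letters.
PTTG1IP, chr10:77581405-77581654: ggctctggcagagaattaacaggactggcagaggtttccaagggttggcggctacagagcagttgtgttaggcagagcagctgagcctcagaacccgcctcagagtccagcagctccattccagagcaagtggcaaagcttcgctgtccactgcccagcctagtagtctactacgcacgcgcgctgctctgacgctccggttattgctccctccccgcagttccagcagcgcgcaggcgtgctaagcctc
ESPL1, chr15:102296249-102296271: ATTGGtcactagggataTTTGAA
The PTTG1IP window has 60% G and C and holds neither set of letters. In ESPL1 the CCAAT letters, read on the minus strand, end 40 bases before the start and the CHR letters 22 bases before it, without overlap. These distances are from the RefSeq start. GENCODE starts the ESPL1 gene at 102296266, where the CHR letters begin, so by that annotation the CHR letters lie inside the gene. Exons of any annotated gene, ESPL1 or another, cover 136 bases of the ESPL1 window there. Windows were matched for 8 of the 10 genes. By the GENCODE positions 2 of these windows do not lie before the gene but wholly inside it. They are those of PTTG1 (chr11:43425982-43426231, in a gene that starts at 43426251 on the minus strand) and STAG1 (chr9:100643198-100643447, in a gene that starts at 100597798). Whether letters lie before the GENCODE starts of PTTG1 and STAG1 was not searched. CHR letters were in 1 of these 8 (ESPL1) and in 17.1% of all 32851 promoter windows, and CCAAT letters were in 4 of the 8 (ESPL1, SMC1A, STAG1 and WAPL) and in 33.8% of all windows. A match describes letters only.

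PTTG1IP (ENSMUSG00000009291.13, chromosome 10, 77581720 to 77598732 in GRCm38) stood at 57.9, 65.7 and 58.9 CPM in PSC and at 213, 233 and 234 CPM in PSCN. The groups were far apart, and each was tight. The fitted level in PSCN was 3.73-fold that of PSC, a log2 fold change of 1.90 (SE 0.13). The authors' deposited table gives 1.89 with a standard error of 0.15. PSC library 3, which resembles PSCN across the transcriptome, had the PTTG1IP level of its own group, and without it the log2 fold change was 1.89. Summed squamous markers were at 148 CPM in PSC library 1 and 5443 CPM in PSC library 3, and 4 summed club cell markers at 26880 and 2764 CPM, where PTTG1IP was at 57.9 and 58.9 CPM. The part of cell types in the PTTG1IP difference was not tested. Within PSCN, NSD3 was at 821, 918 and 1932 CPM, in the same order of libraries as PTTG1IP, and 3 libraries cannot show whether the levels are related. No other annotated gene shares exons with PTTG1IP, and no other annotated transcript matched it at 90% identity or more over at least 200 bases.

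**Figure D1:**
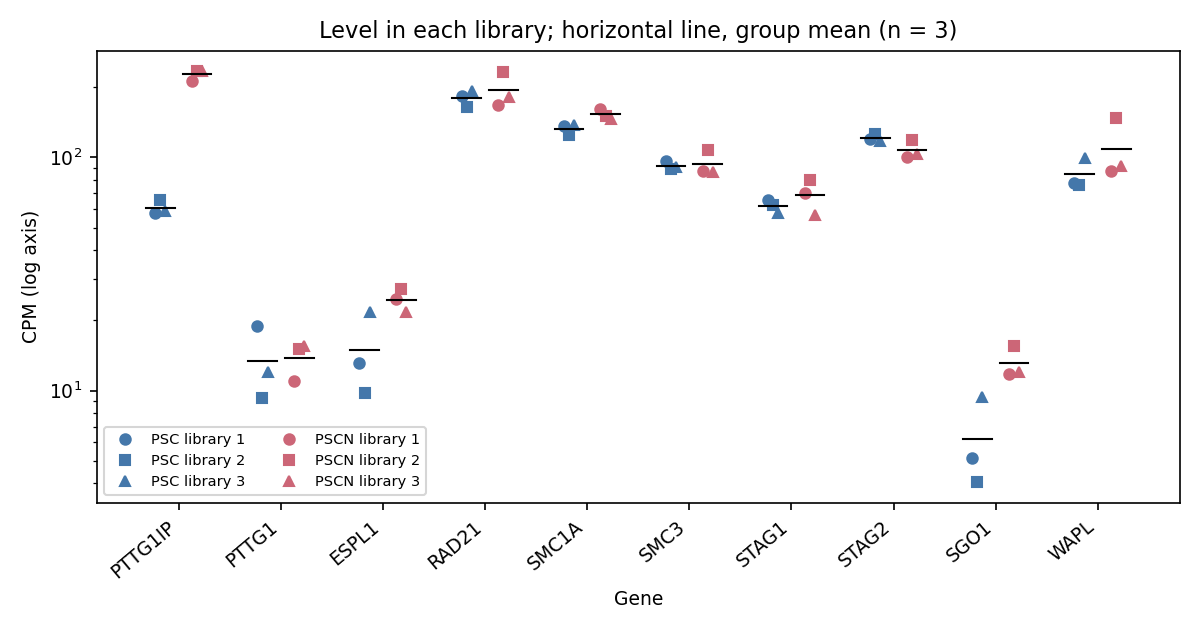
Level of each of the 10 genes in each library, in CPM on a log axis, with PSC in blue and PSCN in red, 1 symbol shape per replicate number, and the mean of 3 libraries as a line. The PTTG1IP points of PSCN, 213 to 234 CPM, lie well above those of PSC, 57.9 to 65.7 CPM, while most other genes overlap.

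Securin, the partner of PTTG1IP, did not differ in that way. PTTG1 (chromosome 11, 43420250 to 43426251) stood at 19.0, 9.31 and 12.0 CPM in PSC and at 11.0, 15.0 and 15.5 CPM in PSCN. The PSCN values lay inside the range of PSC, and the log2 fold change was 0.04 (SE 0.32). It ran from -0.16 to 0.38 when each library was left out in turn, and was -0.46 (SE 0.34) with sex read from XIST as a covariate, so its direction was not stable. The ratio of PTTG1IP to PTTG1 counts was 3.05, 7.05 and 4.91 in PSC and 19.4, 15.6 and 15.1 in PSCN, so the ratios did not overlap. ESPL1 (chromosome 15, 102296266 to 102324357), the protease that securin inhibits, stood at 13.2, 9.78 and 21.7 CPM in PSC and at 24.6, 27.1 and 21.7 CPM in PSCN. PSC library 3 nearly reached PSCN library 3, at 21.67 against 21.74 CPM. The log2 fold change was 0.72 (SE 0.32), and 1.11 without PSC library 3.

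SGO1 (chromosome 17, 53674786 to 53689333), the protector of centromeric cohesin, stood at 5.13, 4.05 and 9.34 CPM in PSC and at 11.8, 15.6 and 12.0 CPM in PSCN. No PSC library reached a PSCN library, and PSC library 3 came nearest. The log2 fold change was 1.09 (SE 0.37), the next after PTTG1IP among the 10 genes, and 1.53 without PSC library 3. SGO1 has an annotated copy, GM6982, of 92.9% identity over 1566 bases, which itself held at most 0.04 CPM. WAPL (chromosome 14, 34673928 to 34747983), which releases cohesin, stood at 77.9, 76.0 and 99.6 CPM in PSC and at 87.3, 148 and 91.9 CPM in PSCN. Only PSCN library 2 lay above all PSC libraries. The log2 fold change was 0.37 (SE 0.25), and 0.04 without PSCN library 2.

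The genes of the ring itself had small differences. SMC1A (X chromosome, 152016428 to 152062694), an ATPase arm of the ring, stood at 137, 124 and 137 CPM in PSC and at 161, 151 and 147 CPM in PSCN, so all PSCN values were above PSC by a small margin, with a log2 fold change of 0.20 (SE 0.13). SMC3 (chromosome 19, 53600398 to 53645833), the other arm, stood at 96.1, 89.2 and 90.6 CPM in PSC and at 87.2, 107 and 86.1 CPM in PSCN, and the PSCN values lay on both sides of PSC. Its log2 fold change was 0.02 (SE 0.14). RAD21 (chromosome 15, 51962240 to 51991747), the subunit that separase cuts, stood at 183, 165 and 193 CPM in PSC and at 167, 233 and 181 CPM in PSCN, with a log2 fold change of 0.11 (SE 0.18). Again PSCN library 2 was the high one, and without it the log2 fold change was -0.09 for RAD21 and -0.13 for SMC3.

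STAG1 (chromosome 9, 100597798 to 100959375) stood at 65.6, 62.6 and 57.5 CPM in PSC and at 70.3, 79.7 and 56.6 CPM in PSCN, with a log2 fold change of 0.15 (SE 0.16). STAG2 (X chromosome, 42149317 to 42277185), its paralogue in the ring, stood at 120, 126 and 118 CPM in PSC and at 100, 119 and 104 CPM in PSCN. It was the 1 gene of the 10 with a negative log2 fold change, -0.17 (SE 0.13), and -0.30 without PSCN library 2. The STAG2 to STAG1 ratio in CPM was 1.83, 2.01 and 2.04 in PSC and 1.43, 1.49 and 1.83 in PSCN. The highest PSCN ratio lay barely below the lowest PSC ratio, at 0.872 against 0.875 in log2. SMC1A and STAG2 are X-linked, and PSC libraries 2 and 3 are those with XIST. With sex read from XIST as a covariate, which leaves PSC library 1 as the only PSC library of the sex of PSCN, the log2 fold changes were 0.16 (SE 0.20) for SMC1A and -0.16 (SE 0.20) for STAG2.

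**Figure D2:**
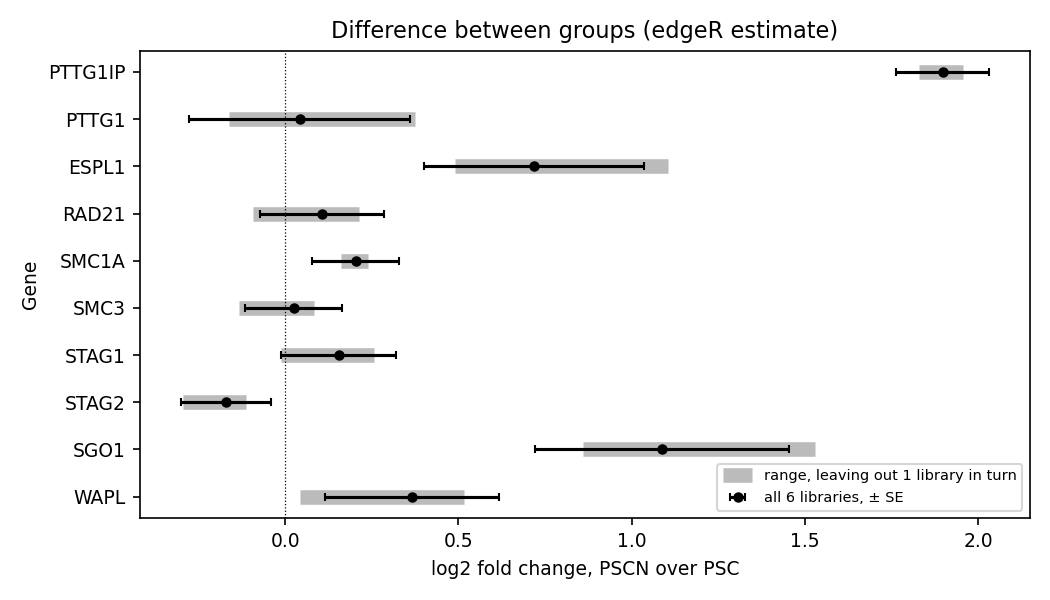
log2 fold change of PSCN over PSC for the 10 genes, as the edgeR estimate with its SE (points and bars) and the range when 1 library is left out in turn (grey). PTTG1IP stays between 1.83 and 1.96, and SGO1 between 0.86 and 1.53, while the ranges of PTTG1, RAD21, SMC3 and STAG1 include 0.

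In 4 of the 10 genes (PTTG1IP, ESPL1, SMC1A and SGO1) each PSCN library exceeded every PSC library, and in 0 was each lower. Over all 21201 genes tested the shares were 15.2% above and 13.4% below. Without PSC library 3 it was 5 genes above and 1 below, where all genes gave 27.7% and 27.2%. The contrast chose PTTG1IP, so these counts are descriptions.

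The order of levels per length changed at the top. Per kilobase of annotated exon, RAD21 was the highest of the 10 in PSC at 42.6 ± 3.41 CPM per kb (SD, n = 3), followed by SMC1A at 23.0 ± 1.25. SMC3 (16.6 ± 0.656), PTTG1IP (15.7 ± 1.09), STAG2 (14.7 ± 0.508) and WAPL (12.8 ± 1.98) came next, and each overlapped its neighbour in this order. PTTG1 (6.72 ± 2.50) and STAG1 (5.25 ± 0.346) overlapped each other, as did ESPL1 (1.70 ± 0.700) and SGO1 (1.62 ± 0.734). In PSCN, PTTG1IP was first at 58.5 ± 3.08 CPM per kb and RAD21 second at 45.8 ± 8.20, with 1 RAD21 library inside the range of PTTG1IP. SMC1A followed in PSCN at 26.5 ± 1.23, and SGO1 (3.45 ± 0.560) and ESPL1 (2.80 ± 0.308) were again the lowest.

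ESPL1 and SGO1 act in mitosis, and their levels were set beside 10 genes of proliferating cells. The summed level of these genes was 520, 342 and 774 CPM in PSC, against 805, 1100 and 818 CPM in PSCN, and in 5 of the 10 each PSCN library exceeded every PSC library, as in 15.2% of all genes tested. The log2 ratio of ESPL1 to this sum was -5.30, -5.13 and -5.16 in PSC and -5.03, -5.34 and -5.23 in PSCN. ESPL1 thus took a like share of the sum in all 6 libraries, with a mean difference of -0.01. For SGO1 the ratio was -6.66, -6.40 and -6.37 in PSC and -6.09, -6.14 and -6.09 in PSCN, which did not overlap and differed by 0.37 on average. Securin had ratios of -4.78, -5.20 and -6.01 in PSC and -6.20, -6.20 and -5.72 in PSCN. PSC library 1, with the second lowest proliferation sum, had the most PTTG1. The ratio of PTTG1IP was -3.17, -2.38 and -3.71 in PSC and -1.92, -2.24 and -1.81 in PSCN, higher by 1.10 on average. The part of proliferation in these differences was not tested.

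**Figure D3:**
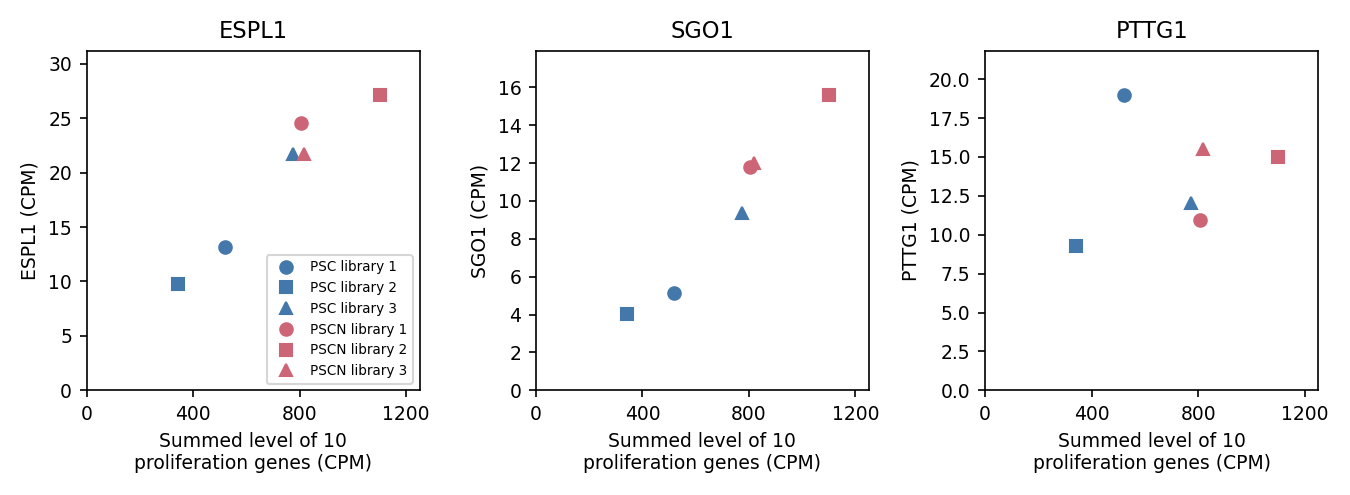
Level of ESPL1, SGO1 and PTTG1 in CPM against the summed CPM of 10 proliferation genes in the same library, with PSC in blue and PSCN in red. ESPL1 and SGO1 are lowest in PSC library 2 (sum 342 CPM) and highest in PSCN library 2 (1100 CPM), while PTTG1 is highest in PSC library 1 (520 CPM).

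The rest of the pathway was read from lists of cohesin loading, establishment, protection, the meiotic ring, the anaphase-promoting complex, the spindle checkpoint, PTTG1IP partners and proliferation. Of 70 such genes 68 were tested, and 0 passed an adjusted p of 0.05 with edgeR, where 0.00472% of all genes did (1 gene). The lowest adjusted p among them was 0.192, of BUB3. At an unadjusted p under 0.05, 9 of the 68 (13.2%) were higher and 0 lower, against 9.48% and 12.2% of all genes. DESeq2 called 1 of them, against 14.7% of the genes it tested, and limma-voom with quality weights 20, against 14.3%, each of them higher. Without PSC library 3 edgeR called 7, each higher, against 8.8% of all genes, among them BUB1B (log2 fold change 1.72, adjusted p = 0.0445) and UBE2S (0.87, adjusted p = 0.049). Each PSCN library exceeded every PSC library in 21 of the 68 and was lower in 1, where all genes gave 15.2% and 13.4%. Without PSC library 3 it was 45 higher and 4 lower, where all genes gave 27.7% and 27.2%.

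The loaders of cohesin were lower in value. The log2 fold changes were -0.26 (SE 0.17) for NIPBL and -0.35 (SE 0.19) for its partner MAU2, and the groups overlapped in both. Of 13 genes of cohesion establishment and maintenance 11 had positive values, with a median log2 fold change of 0.30 against -0.01 over all genes. PDS5B, which binds the ring and works with WAPL, stood at 70.8, 54.5 and 56.4 CPM in PSC and at 50.8, 46.6 and 41.4 CPM in PSCN, the 1 pathway gene with all PSCN values below PSC (log2 fold change -0.39, SE 0.16). CDCA5 (sororin), which keeps WAPL away from the ring, stood at 6.40, 4.18 and 10.6 CPM in PSC and at 11.2, 12.0 and 12.0 CPM in PSCN (0.74, SE 0.36). The helicase DDX11 had 0.45 (SE 0.23), and HDAC8, the X-linked deacetylase of SMC3, had -0.36 (SE 0.22).

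All 8 tested genes of cohesin protection and release had positive values (median log2 fold change 0.44). PPP2R1A, the scaffold of the phosphatase that shugoshin recruits, stood at 167, 169 and 201 CPM in PSC and at 214, 231 and 255 CPM in PSCN, without overlap (0.38, SE 0.15). The kinases BUB1 (0.86, SE 0.45), PLK1 (0.72, SE 0.43) and HASPIN (0.50, SE 0.30) overlapped between groups, each with PSC library 3 the highest of PSC. In the meiotic ring, STAG3 was at 0.25 to 0.59 CPM in all libraries. REC8, the meiotic counterpart of RAD21, stood at 25.1, 8.12 and 1.76 CPM in PSC and at 5.03, 0.22 and 0.47 CPM in PSCN. Its high values were in PSC libraries 1 and 2, where the summed level of 5 ciliated cell markers was 544 and 283 CPM, against 24.6 to 51.3 CPM in the other 4. Summed club cell markers (26880 and 17760 CPM) and alveolar type 2 cell markers (5825 and 10270 CPM) were also highest in PSC libraries 1 and 2. So were summed endothelial cell markers, at 1167 and 713.5 CPM. No ciliated marker was at 0 in every library, and the part of any of these cell types in the REC8 level was not tested.

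Of 19 genes of the anaphase-promoting complex and its helpers 15 had positive values (median log2 fold change 0.20). UBE2S, which extends ubiquitin chains on its targets, stood at 37.8, 49.1 and 66.2 CPM in PSC and at 83.9, 79.2 and 73.3 CPM in PSCN (0.63, SE 0.23). The coactivator FZR1 (0.51, SE 0.19), the subunit ANAPC2 (0.42, SE 0.16) and the inhibitor FBXO5 (0.57, SE 0.24) also did not overlap between groups. All 10 spindle checkpoint genes had positive values (median 0.68). BUB3 stood at 59.8, 58.2 and 77.2 CPM in PSC and at 84.0, 98.7 and 97.7 CPM in PSCN (0.52, SE 0.16). MAD1L1 (0.61, SE 0.23), MAD2L1BP (0.75, SE 0.29) and the kinase-like BUB1B (1.13, SE 0.44) did not overlap either. The genes named so far are the 4 of smallest unadjusted p in each list. In 7 of the 19 genes and 5 of the 10 checkpoint genes each PSCN library exceeded every PSC library. Over all genes tested that share was 15.2%. UBE2C (1.05, SE 0.45) and TTK (1.03, SE 0.46) had large values but overlapped between groups. In the proliferation list all 10 were positive (median 0.75), with BIRC5 at 0.88 (SE 0.38), TOP2A at 0.88 (SE 0.38), MCM5 at 0.74 (SE 0.32) and MCM2 at 0.68 (SE 0.30).

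Among other partners of PTTG1IP, the iodide transporter SLC5A5 was at 0.18 to 1.23 CPM in all libraries. The actin-binding cortactin gene CTTN stood at 179, 173 and 228 CPM in PSC and at 257, 297 and 217 CPM in PSCN, with 1 PSC library inside the PSCN range (log2 fold change 0.41, SE 0.19).

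PTTG1IP was set beside the genes around it. It was chosen for its difference between these groups, so a larger value than theirs is a description only. Of 40 annotated genes within 300 kb on either side, 12 were in the count table and 8 were tested. The log2 fold changes of these 8 ran from -0.96 to 0.54. The nearest were SUMO3, a ubiquitin-like modifier gene 7365 bases downstream, with -0.39 (SE 0.42), and ITGB2, a leukocyte integrin gene 16012 bases upstream, with 0.24 (SE 0.53). SUMO3 stood at 66.2, 55.2 and 67.3 CPM in PSC and at 32.4, 82.2 and 29.1 CPM in PSCN, on both sides of PSC. LRRC3, at the far edge of the window, was the 1 neighbour without overlap, at 1.98 to 2.11 CPM in PSC and 0.78 to 1.44 CPM in PSCN (-0.96, SE 0.34). FAM207A (0.30, SE 0.17), 2810425M01RIK (0.35, SE 0.55), UBE2G2 (0.38, SE 0.61), ADARB1 (0.54, SE 0.63) and TSPEAR (-0.70, SE 0.78) overlapped between groups. None of the 8 passed the test with edgeR, and 1 of them had an unadjusted p under 0.05. Over all genes tested 0.00472% passed, and 9.48% were higher and 12.2% lower at an unadjusted p under 0.05. All PSCN libraries lay below all PSC libraries in 13.4% of all genes tested.

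**Figure D4:**
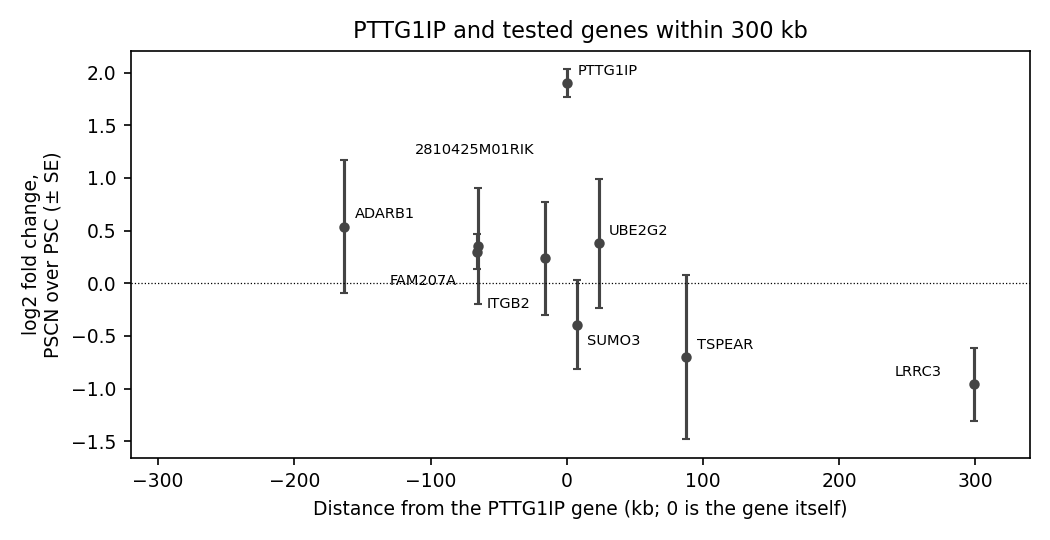
log2 fold change of PSCN over PSC (± SE) for PTTG1IP and the 8 tested genes within 300 kb, against their distance from PTTG1IP in kb. PTTG1IP lies at 1.90, and its neighbours between -0.96 and 0.54.

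The genes whose log2 CPM was most like that of PTTG1IP over the 6 libraries, among 12367 genes of at least 5 CPM, were SUN2 (Pearson r = 0.996), CBWD1 (r = 0.994), NDOR1 (r = 0.992), SMDT1 (r = 0.99) and PCYT2 (r = 0.988). These share the step between groups, and their log2 fold changes of 0.43 to 0.71 were smaller. SUN2, of the nuclear envelope, stood at 51.6, 54.4 and 49.4 CPM in PSC and at 80.3, 84.7 and 86.5 CPM in PSCN. Those most like PTTG1 were DLAT (r = 0.993), COX3 (r = 0.986), HINT1 (r = 0.973), ETFA (r = 0.968) and COX2 (r = 0.965). DLAT, a subunit of the mitochondrial pyruvate dehydrogenase, stood at 65.6, 50.3 and 55.5 CPM in PSC and at 52.2, 60.4 and 59.9 CPM in PSCN, the same order of libraries as PTTG1 apart from PSCN libraries 2 and 3. The points share libraries and were chosen from many genes, so these values only describe likeness.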

How the data were processed

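The labels' protocols describe stranded libraries of total RNA with a read length of 76 nt. Trimmomatic, HISAT2, StringTie and DESeq2 are named in the submitters' processing notes, as is GRCm38, while the annotation and the use of strand in counting are not given in the sources used here. The authors deposited estimated counts per gene symbol, as whole numbers. They also deposited a DESeq2 table with a mean normalized signal, log2 fold changes and their standard errors, a Wald score and p-values. Count columns were matched to samples by their letter and number, which the labels do not state outright.

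Genes were filtered with filterByExpr (21201 kept), normalized by TMM and fitted over all genes with edgeR 4.0.16 (quasi-likelihood test, R 4.3.3). P-values were adjusted by Benjamini-Hochberg, with a threshold of 0.05. The SE was obtained from the log2 fold change and the F statistic. Log2 CPM used a prior count of 2. Positions and exon lengths are from GENCODE M21, also GRCm38. Fits were tested on simulated data. The labels name no molecular identifiers, so reads are not counted as independent molecules.

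The 10 genes and the lists were chosen with earlier results of these data known. Named genes were the 10, the model genes, the sex transcripts, up to 4 genes of smallest p per pathway list, tested genes within 300 kb of PTTG1IP, and the 5 genes most like PTTG1IP and PTTG1 (predicted genes and pseudogenes left out). Some genes that met these rules are not reported here. Alternatives were RLE and upper quartile normalization, DESeq2 1.42.0, limma-voom (limma 3.58.1) with quality weights, no filter, a minimum of 1 CPM in 3 libraries, leaving out each library, a replicate block and sex as a covariate.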

Additional observations from a re-analysis of the deposited data

How the results depend on the processing

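The log2 fold change of PTTG1IP stayed between 1.83 and 1.97 over 14 alternatives. Genes past the threshold numbered 1 with edgeR, 2960 with DESeq2 (1126 higher and 1834 lower), 3026 with limma-voom with quality weights (1788 and 1238), 3 with the filter of 1 CPM in at least 3 libraries, 0 with sex as a covariate, and from 0 to 1946 when a library was left out, 1946 being without PSC library 3. Of the 68 pathway genes edgeR called 0, DESeq2 1 and limma-voom 20, and from 0 to 7 were called when a library was left out. Whether replicate numbers pair the samples cannot be decided from 3 libraries a group. Deviations of same-numbered libraries correlated at 0.19, -0.05 and 0.02, and those of PSC library 3 and PSCN library 2 at 0.19. With a replicate block 0 genes passed and PTTG1IP was at 1.90. The log2 fold change of PTTG1 was -0.46 with sex as a covariate, and with each library left out in turn that of RAD21 ran from -0.092 to 0.212 and that of SMC3 from -0.133 to 0.083, both lowest without PSCN library 2. Without PSC library 3, chosen after seeing the data, 45 rather than 21 pathway genes had all PSCN libraries above PSC, and over all genes the share was 27.7% rather than 15.2%. The lowest count of the 10 genes in a library was 307 (SGO1), so with 3 libraries a group the spread between libraries, not depth, limits these values.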
